A study of Rattus norvegicus with 28 samples.

Results

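Transcript levels of 31 genes that make, sense, move and export cholesterol were followed in primary rat glia exposed to the HERV-W envelope protein (ENV) or to lipopolysaccharide (LPS). The genes were found by exact symbol in the deposited count tables. They comprised 18 enzymes of the mevalonate and sterol synthesis route, 5 regulators, 3 proteins of uptake and transport inside the cell, and 5 genes of efflux, storage and oxysterols. All 31 were listed for astrocytes, in tables of 20268 genes (ENV set) and 20056 genes (LPS set). The microglial tables of 23139 genes listed 30 of them and had no row for Fdps, whose microglial level was not analysed here.

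The cells came from cortices of Wistar rats at postnatal day 1 that were grown in flasks for 10 days. Microglia were shaken off and purified on CD11b/c magnetic beads, then treated 1 day after isolation. Astrocytes were treated 3 days after isolation. There were 8 groups: microglia with HERV-W ENV as a recombinant protein at 1 µg/ml (n = 3) and with its buffer (n = 3), microglia with 100 ng/ml LPS (n = 3) and with H2O (n = 3), and the same 4 treatments in astrocytes (n = 4 each). All groups were kept in medium with 10% fetal calf serum, itself a source of lipoprotein cholesterol. The length of the exposure and the origin of the replicates (separate animals, litters or dishes) are left unstated in the sources used here. Accordingly, p-values reflect the spread of these libraries alone, and that spread may be technical.

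Cells build cholesterol from acetyl-CoA through mevalonate, squalene and lanosterol. When membrane sterol falls, Scap escorts the SREBP factors from the endoplasmic reticulum to be cleaved, and these switch on most genes of the route, while Insig proteins hold Scap back when sterol is plentiful. Cholesterol that arrives by endocytosis leaves the late endosome through Npc2 and Npc1, and surplus sterol is esterified by Soat1 or exported by ABC transporters under control of the oxysterol-sensing liver X receptors. In brain, which takes up little cholesterol from blood, astrocytes are known as makers and exporters of it, and microglia take up and clear the sterol of myelin and debris.

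Library depth was 26513999 to 42724111 counts in microglia and 23742228 to 35326938 in astrocytes. Levels are CPM, a gene's counts scaled to a library total of 1000000. Changes are log2 ratios from edgeR's quasi-likelihood test with trimmed-mean (TMM) scaling, given with their standard error and a p-value adjusted (Benjamini-Hochberg) over all genes tested. Genes with an adjusted p under 0.05 are termed called. The main fits had no term for the replicate number, and fits with that number as a block are given beside them. TMM scaling raised the microglial log2 changes by 0.20 for ENV and 0.31 for LPS relative to library totals, so a CPM ratio in microglia lies below the fitted change by about that much. Each cell type's own markers were present: the 10 microglial markers summed to 8040–9709 CPM in ENV microglia against 7474–9689 CPM with buffer, and to 4944–8809 CPM in LPS microglia against 8401–9310 CPM with H2O. The 10 astrocyte markers summed to 4623–8354 CPM in ENV astrocytes against 8938–11650 CPM with buffer, and to 2616–8331 CPM in LPS astrocytes against 5709–11640 CPM with H2O. In microglia, replicate 3 of the LPS, H2O and buffer groups stood apart from the other libraries of its group. The mean chi-square per gene of these libraries against the other 2 was 281–381 for LPS, 139–164 for H2O and 135–138 for buffer, while the other pair of the same group differed by 136, 74.3 and 17.4. In astrocytes, buffer and H2O replicates 3 differed by a mean chi-square per gene of only 4.72, buffer and H2O replicates 4 by 3.58, and ENV and LPS replicates 4 by 6.51, when the other astrocyte pairs across the sets differed by 20.2 or more. The ENV and LPS comparisons of astrocytes are therefore not independent of each other in replicates 3 and 4, and results with replicates 1 and 2 alone are given beside the main ones. In bulk RNA, fewer cells of a type and less RNA per cell cannot be told apart.

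The synthesis arm was mostly lower in ENV-treated microglia, as was uptake and transport (median log2 change -0.54, 2 of 3 genes below 0). Regulators had a median of -0.14 with 3 of 5 below 0. The efflux, storage and oxysterol arm had a median of 0.66 with 1 of 5 below 0. Of 17 enzymes tested, 6 were called lower (Idi1, Sqle, Tm7sf2, Msmo1, Sc5d and Dhcr7), 1 was called higher (Mvd) and 10 were not called. The median log2 change of the 17 was -0.55, and 14 lay below 0, beside a median of -0.03 over all 12844 genes tested. Among all genes 30.9% were called, 16.2% higher and 14.7% lower. In the same-numbered pairs of ENV and buffer libraries, 13 of the 17 enzymes had lower CPM in every pair, and Acat2 and Mvd had higher CPM in every pair. These CPM carry no TMM scaling, and on library totals the median log2 change of all genes was -0.22, which tilts such a count to lower. The share of all genes lower in every pair was not counted.

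Sqle, squalene epoxidase, catalyses an oxygen-dependent, rate-limiting step on the way to lanosterol. Its level was 14.4, 25.7 and 23.3 CPM in ENV microglia, against 40.2, 58.7 and 48.0 CPM with buffer, so the groups did not overlap. Its change was -1.02 ± 0.22 (SE; edgeR adjusted p = 0.0134). Idi1, which isomerises isopentenyl diphosphate upstream of squalene, stood at 7.22, 10.7 and 11.3 CPM with ENV and at 14.4, 25.1 and 23.6 CPM with buffer. That change was -0.91 ± 0.25 (edgeR adjusted p = 0.0319), with every ENV library below every buffer library.

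Downstream of lanosterol, 4 enzymes were called lower. Tm7sf2, a sterol C14 reductase, was the scarcest of them at 1.70, 2.38 and 2.44 CPM with ENV and 3.24, 6.44 and 6.64 CPM with buffer. Msmo1, which oxidises the C4 methyl groups, had 11.4, 13.8 and 15.4 CPM with ENV, against 22.0, 29 and 34.9 CPM with buffer. The groups did not overlap for either gene, and the changes were -1.12 ± 0.32 for Tm7sf2 (edgeR adjusted p = 0.0369) and -0.89 ± 0.20 for Msmo1 (edgeR adjusted p = 0.0163). Sc5d, the lathosterol desaturase, had 4.62, 5.81 and 6.99 CPM with ENV and 9.99, 14.8 and 9.87 CPM with buffer. Dhcr7, which reduces 7-dehydrocholesterol in the last steps, had 3.97, 7.51 and 9.0 CPM with ENV and 12.8, 18.2 and 20.3 CPM with buffer. Every ENV library was below every buffer library for both, with changes of -0.79 ± 0.22 for Sc5d (edgeR adjusted p = 0.0331) and -1.14 ± 0.31 for Dhcr7 (edgeR adjusted p = 0.0311).

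**Figure D1:**
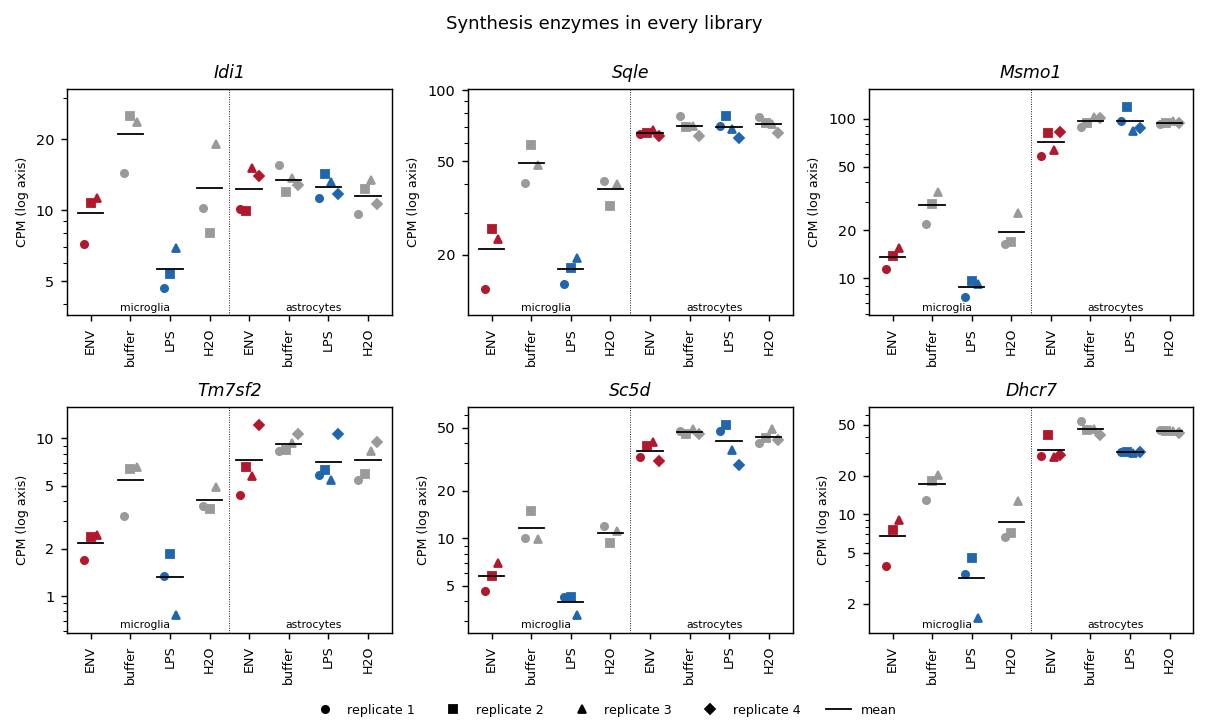
Levels of 6 synthesis enzymes (Idi1, Sqle, Msmo1, Tm7sf2, Sc5d, Dhcr7) in each of the 28 libraries, in CPM on a log axis, by group, with the group mean as a line and the replicate number as the marker shape. The 6 are the enzymes called lower in ENV microglia, so their shared direction there follows from the choice. In microglia the ENV points lie below the buffer points in all 6 panels (Sqle 14.4–25.7 against 40.2–58.7 CPM). In astrocytes Sqle lies at 64.2–68.0 CPM with ENV against 63.9–77.7 CPM with buffer. Sc5d and Dhcr7 were called lower with ENV in astrocytes too, and Idi1, Sqle, Msmo1 and Tm7sf2 were not called there.

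Mvd, the decarboxylase that ends the mevalonate part of the route, went the other way. Its level was 35.8, 35.1 and 40.6 CPM in ENV microglia and 20.3, 21.9 and 32.4 CPM with buffer, a change of 0.77 ± 0.21 (edgeR adjusted p = 0.0283). Scaled to library totals the same fit gave 0.58 (edgeR adjusted p = 0.0563), so this call rests on the TMM scaling. The other enzymes were not called. Pmvk, phosphomevalonate kinase, had 14.3, 11.9 and 14.6 CPM with ENV and 18.8, 17.4 and 24.6 CPM with buffer, separate groups with a difference of -0.38 ± 0.20. Hsd17b7, a sterol ketone reductase, had 0.650, 1.40 and 1.02 CPM with ENV and 1.66, 2.28 and 1.72 CPM with buffer (-0.68 ± 0.33), again without overlap. Nsdhl, which takes part in removing the C4 methyl groups, had overlapping groups at 26.1, 27.3 and 29.6 CPM with ENV and 25.8, 29.6 and 25.4 CPM with buffer (0.24 ± 0.11). Lss, the cyclase that forms lanosterol, was at 15.5, 20.4 and 21.0 CPM with ENV and 19.8, 25.2 and 20.4 CPM with buffer, overlapping groups whose difference was not called (edgeR adjusted p = 0.997).

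With the replicate number as a block, 39.2% of all genes and 17 of 30 members were called in ENV microglia, against 11 members without it. The block added Hmgcs1 (-0.41, edgeR adjusted p = 0.0336), which makes HMG-CoA, and Fdft1 (-0.53, edgeR adjusted p = 0.0216), which makes squalene. It also added Cyp51 (-0.60, edgeR adjusted p = 0.0062), the lanosterol demethylase, on the lower side and Acat2 (0.52, edgeR adjusted p = 0.0447), the cytosolic acetoacetyl-CoA thiolase, on the higher side. In the joint fit of all 4 microglial groups the Idi1 (edgeR adjusted p = 0.064) and Dhcr7 (edgeR adjusted p = 0.0696) calls were lost. Without buffer replicate 3, the library that stood apart, 5282 genes and 11 members were called. Idi1 (-0.80, edgeR adjusted p = 0.0559), Tm7sf2 (-0.93, edgeR adjusted p = 0.067) and Dhcr7 (-0.97, edgeR adjusted p = 0.0572) lost their calls there, and Acat2 (0.75), Srebf2 (-0.50) and Npc1 (-0.71) gained one. Without the block, leaving out single libraries ended all 7 synthesis calls in at least 1 fit. Sqle was lost only without buffer replicate 2 (edgeR adjusted p = 0.0503), and Msmo1 only without ENV replicate 1 or 2 (highest edgeR adjusted p = 0.0617). The other 5 lost the call in 4 or 5 of the 6 fits, with a highest edgeR adjusted p of 0.114 for Sc5d, and kept the sign in each. Oligodendrocyte-lineage markers, from cells that are themselves rich in sterol synthesis, summed to 81.3–169 CPM in ENV microglia and 303–336 CPM with buffer. Astrocyte markers summed to 116–237 CPM in ENV microglia and 240–294.3 CPM with buffer. Gene by gene, 3 of 8 oligodendrocyte-lineage markers tested were called lower and 0 higher (median log2 change -1.11). Of 10 astrocyte markers tested, 1 was called lower and 0 higher (median 0.14), so their sum and their median differ in direction. Among all genes 30.9% were called. The part of either in the synthesis result was not tested.

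In LPS-treated microglia the synthesis arm again lay mostly below its vehicle. Of the 17 enzymes, 4 were called lower (Sqle, Tm7sf2, Msmo1 and Sc5d), 1 higher (Mvd) and 12 were not called. The median was -0.46, with 12 below 0, beside -0.02 over all 12229 genes tested. Among all genes 29.8% were called, 16% higher and 13.8% lower. In every same-numbered pair 11 of the 17 enzymes had lower CPM with LPS, and none had higher CPM in every pair. On library totals the median log2 change of all genes was -0.34 here, which tilts this count to lower. How many of all genes were lower in every pair was not counted.

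Sqle had 15.0, 17.6 and 19.4 CPM in LPS microglia, against 41.3, 32.3 and 40.1 CPM with H2O, a change of -0.82 ± 0.15 (edgeR adjusted p = 0.0127). Sc5d had 4.28, 4.23 and 3.28 CPM with LPS, against 12, 9.39 and 11.1 CPM with H2O (-1.16 ± 0.20, edgeR adjusted p = 0.0105). In both, the LPS libraries were close together and well below the H2O libraries. Msmo1 had 7.62, 9.58 and 9.24 CPM with LPS and 16.4, 16.9 and 25.6 CPM with H2O (-0.84 ± 0.20, edgeR adjusted p = 0.0243). Tm7sf2 had 1.34, 1.85 and 0.761 CPM with LPS and 3.71, 3.56 and 4.92 CPM with H2O (-1.31 ± 0.39, edgeR adjusted p = 0.0486). The groups did not overlap for these genes either, but the block ended the Tm7sf2 call (-1.37, edgeR adjusted p = 0.0636). Dhcr7 stood at 3.44, 4.59 and 1.55 CPM with LPS and 6.63, 7.09 and 12.6 CPM with H2O, a difference of -1.14 ± 0.45 that was not called (edgeR adjusted p = 0.102). Idi1 stood at 4.66, 5.38 and 6.91 CPM with LPS and 10.2, 8.04 and 19.1 CPM with H2O (-0.82 ± 0.34, edgeR adjusted p = 0.116).

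Mvd in LPS microglia was at 28.0, 30.9 and 22.2 CPM, against 17.3, 20.1 and 23.2 CPM with H2O, so the CPM of the groups overlapped. Its change was 0.73 ± 0.17 (edgeR adjusted p = 0.0238), and 0.42 (edgeR adjusted p = 0.121) when scaled to library totals. Without LPS replicate 3 and H2O replicate 3, the calls on the lower side were Sqle (-0.90), Msmo1 (-0.67), Sc5d (-1.05) and Stard4 (-1.12). On the higher side they were Mvd (0.94), Acat2 (1.71), Insig2 (0.85), Abcg1 (1.06), Lpcat3 (0.53) and Ch25h (1.89), 10 members in all against 8 in the full fit. Calls over all genes rose as well, to 4262 from 3647 in the full fit. Of the synthesis calls, Sqle and Sc5d were each lost only without H2O replicate 1 (edgeR adjusted p = 0.0562 and 0.0563). Msmo1 and Mvd each lost it in 4 of 6 fits and Tm7sf2 in 5 of 6 (highest edgeR adjusted p = 0.133). With the replicate block 30.3% of all genes and 9 members were called. Oligodendrocyte-lineage markers summed to 5.04–35.2 CPM in LPS microglia and 16.7–179 CPM with H2O, and astrocyte markers to 24.5–45.5 CPM in LPS microglia and 62.8–285 CPM with H2O. Gene by gene, 1 of 7 oligodendrocyte-lineage markers tested was called lower and 0 higher (median log2 change -1.72). Of 5 astrocyte markers tested, 0 were called (median 0.60, against the direction of their sum). Among all genes 29.8% were called. Their part in the result was not tested.

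RefSeq promoters of build GRCr8, spanning 250 bases before to 50 after the annotated start, were matched for 26 of the 31 genes. The CCAAT box, bound by NF-Y, a partner of SREBP at many sterol genes, was sought as CCAAT on both strands. It was present in 19 of the 26 promoters and in 37.7% of all 27457 promoters of this length. The promoters of the enzymes called lower in both microglial comparisons that had an entry are printed to show these letters, with CCAAT (or ATTGG, its reverse) and the E-box CACGTG in capitals. Tm7sf2 lies at chr1:212789492-212789791 (minus strand), Msmo1 at chr16:29746863-29747162 (plus strand) and Sc5d at chr8:51538228-51538527 (minus strand).
Tm7sf2: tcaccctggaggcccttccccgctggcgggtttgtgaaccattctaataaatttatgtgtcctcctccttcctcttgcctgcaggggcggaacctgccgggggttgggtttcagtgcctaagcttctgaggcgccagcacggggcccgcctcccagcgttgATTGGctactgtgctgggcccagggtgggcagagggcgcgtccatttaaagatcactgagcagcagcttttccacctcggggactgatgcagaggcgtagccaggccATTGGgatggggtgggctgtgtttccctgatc
Msmo1: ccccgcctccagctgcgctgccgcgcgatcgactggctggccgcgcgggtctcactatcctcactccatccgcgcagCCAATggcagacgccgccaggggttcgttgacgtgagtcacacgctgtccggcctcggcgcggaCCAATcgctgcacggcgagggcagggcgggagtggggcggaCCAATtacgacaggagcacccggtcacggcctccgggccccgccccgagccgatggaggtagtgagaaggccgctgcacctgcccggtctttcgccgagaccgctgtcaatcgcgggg
Sc5d: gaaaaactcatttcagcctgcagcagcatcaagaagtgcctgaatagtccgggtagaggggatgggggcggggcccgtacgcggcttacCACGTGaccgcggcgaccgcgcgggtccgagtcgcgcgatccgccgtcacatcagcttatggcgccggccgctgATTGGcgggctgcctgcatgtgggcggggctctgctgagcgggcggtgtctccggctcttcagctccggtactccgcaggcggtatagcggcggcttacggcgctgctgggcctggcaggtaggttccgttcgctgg

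Tm7sf2 carried 2 CCAAT boxes, Msmo1 carried 3, and Sc5d carried 1 with an E-box. The E-box was present in 4 of the 26 promoters (Sc5d, Scap, Insig1 and Abca1) and in 6.65% of all. The sterol response element was sought on both strands only as TCACNCCAC. This form was in none of the 26 windows and in 1.13% of all promoters. Other forms of it were not sought, and Sqle, Fdft1 and Stard4 had no promoter entry, so the absence of sterol response elements was not shown. The interferon-type core GAAANNGAA was in 1 of the 26 (Insig2) and in 9.5% of all. The DR4 element, which liver X receptors read, was sought on both strands only as 2 half-sites RGKTCA, 4 bases apart. In these letters R is A or G and K is G or T. This strict form was in none of the 26 windows and in 0.08% of all promoters. Looser half-sites were not sought, and Abcg1 had no promoter entry, so the absence of liver X receptor sites was not shown. These matches describe letters in short windows and no binding was measured here.

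In ENV-treated astrocytes the synthesis arm had calls in both directions. Of 18 enzymes, 3 were called lower (Cyp51, Sc5d and Dhcr7), 2 higher (Acat2 and Ebp), and 13 were not called. The median was -0.02, with 9 below 0, beside 0.02 over all 14941 genes tested. Among all genes 17.9% were called, 9.52% higher and 8.35% lower. In the 4 same-numbered pairs, 5 enzymes were lower in every pair and 7 were higher in every pair. How many of all genes did so was not counted.

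Cyp51 had 70.6, 85.3, 79.7 and 81.0 CPM in ENV astrocytes, against 121, 111, 112 and 103 CPM with buffer (-0.48 ± 0.09, edgeR adjusted p = 0.0105). Dhcr7 had 28.5, 41.3, 28.1 and 29.3 CPM with ENV, against 53.3, 45.3, 46.2 and 41.4 CPM with buffer (-0.54 ± 0.15, edgeR adjusted p = 0.04). Sc5d had 32.9, 38.2, 40.7 and 30.8 CPM with ENV, against 47.6, 46.0, 49.0 and 45.6 CPM with buffer (-0.39 ± 0.11, edgeR adjusted p = 0.0417). All 3 sets of ENV libraries lay below all buffer libraries, with the closest approach in Dhcr7 at ENV replicate 2. Acat2 had 66.2, 72.1, 65.9 and 78.4 CPM with ENV, against 54.6, 56.1, 53.6 and 43.8 CPM with buffer (0.45 ± 0.12, edgeR adjusted p = 0.0308). Ebp, the sterol isomerase that precedes Sc5d, had 12.3, 12.8, 11.4 and 12.2 CPM with ENV, against 9.47, 8.63, 8.49 and 8.72 CPM with buffer (0.48 ± 0.11, edgeR adjusted p = 0.0183). For both, every ENV library lay above every buffer library. Fdps, farnesyl diphosphate synthase, listed for astrocytes alone, was at 75.3–95.4 CPM with ENV and 73.7–91.0 CPM with buffer (0.05 ± 0.11), and was not called. Pmvk, Nsdhl and Hsd17b7 had overlapping groups and were not called either. Of the 5 synthesis calls, Cyp51 held in each of 8 fits that left out 1 library, Ebp was lost only without buffer replicate 3 (edgeR adjusted p = 0.0671), and Acat2, Sc5d and Dhcr7 were lost in 5 or 6 fits (highest edgeR adjusted p = 0.108).

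The replicate block raised the share of all genes called in ENV astrocytes to 29.1% and the members to 11, against 6 without it. It added Hmgcs1 (-0.56, edgeR adjusted p = 0.047) and Msmo1 (-0.43, edgeR adjusted p = 0.0204) on the lower side. With replicates 1 and 2 alone, Npc1 was the only member called, and with replicates 3 and 4 alone likewise. Of all genes these fits called 372 and 950, against 2670 with all libraries. The joint fit of all 4 astrocyte groups ended the calls of Sc5d (-0.41, edgeR adjusted p = 0.0866) and Ebp (0.46, edgeR adjusted p = 0.0655). It added Msmo1 (-0.44, edgeR adjusted p = 0.023) and Stard4 (0.66, edgeR adjusted p = 0.0476). That fit counts the near-identical astrocyte libraries of the ENV and LPS sets as separate, which may distort its spread. Lss changed by 1.12 in replicates 3 and 4 and by 0.09 in replicates 1 and 2, and neither value was called. Astrocyte markers, the fibroblast and mural markers (1655–3420 CPM with ENV, 2760–11010 CPM with buffer) and microglial markers (63.6–317 CPM with ENV, 97.9–677.5 CPM with buffer) had lower ranges with ENV. Neuronal markers did not overlap, at 257.7–429.4 CPM with ENV and 548.9–834.3 CPM with buffer. The part of these cells in the result was not tested.

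In LPS-treated astrocytes only Dhcr7 was called among the 31 genes. It had 30.4, 30.9, 30.2 and 30.6 CPM with LPS, against 45.2, 44.4, 44.5 and 43.2 CPM with H2O. The change was -0.52 ± 0.08 (edgeR adjusted p = 0.0123), and the call was lost only without H2O replicate 3 (edgeR adjusted p = 0.0551). In replicates 1 and 2 alone it was -0.57 (edgeR adjusted p = 0.0075). Those replicates differed by a mean chi-square per gene of only 20.7 (LPS) and 26.8 (H2O), and p-values of that fit reflect this small spread. LPS replicates 1 and 2 differed from 3 and 4 by 221–306. Among all 14710 genes 5.34% were called, 2.64% higher and 2.69% lower, and the synthesis median was 0.16 beside 0.03 over all genes. Of the 18 enzymes, 7 were higher and 2 lower in every same-numbered pair, a count not made over all genes. With the replicate block 17.7% of all genes and 5 members were called, which added Acat2 (0.43, edgeR adjusted p = 0.0421), Stard4 (0.55, edgeR adjusted p = 0.0401), Npc1 (-0.56, edgeR adjusted p = 0.0407) and Ch25h (1.85, edgeR adjusted p = 0.00352). Replicates 1 and 2 alone gave 3 member calls and replicates 3 and 4 alone gave 1. Of all genes these fits called 2970 and 892, against 785 with all libraries. Astrocyte markers here were at 2616–8331 CPM with LPS and 5709–11640 CPM with H2O, and fibroblast and mural markers at 1934–3558 CPM with LPS and 2918–10310 CPM with H2O. Neuronal markers summed to 278.7–436.3 CPM with LPS and 449.3–847.2 CPM with H2O, and microglial markers to 77.9–299.7 CPM with LPS and 220–626.7 CPM with H2O. Their part was not tested.

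**Figure D2:**
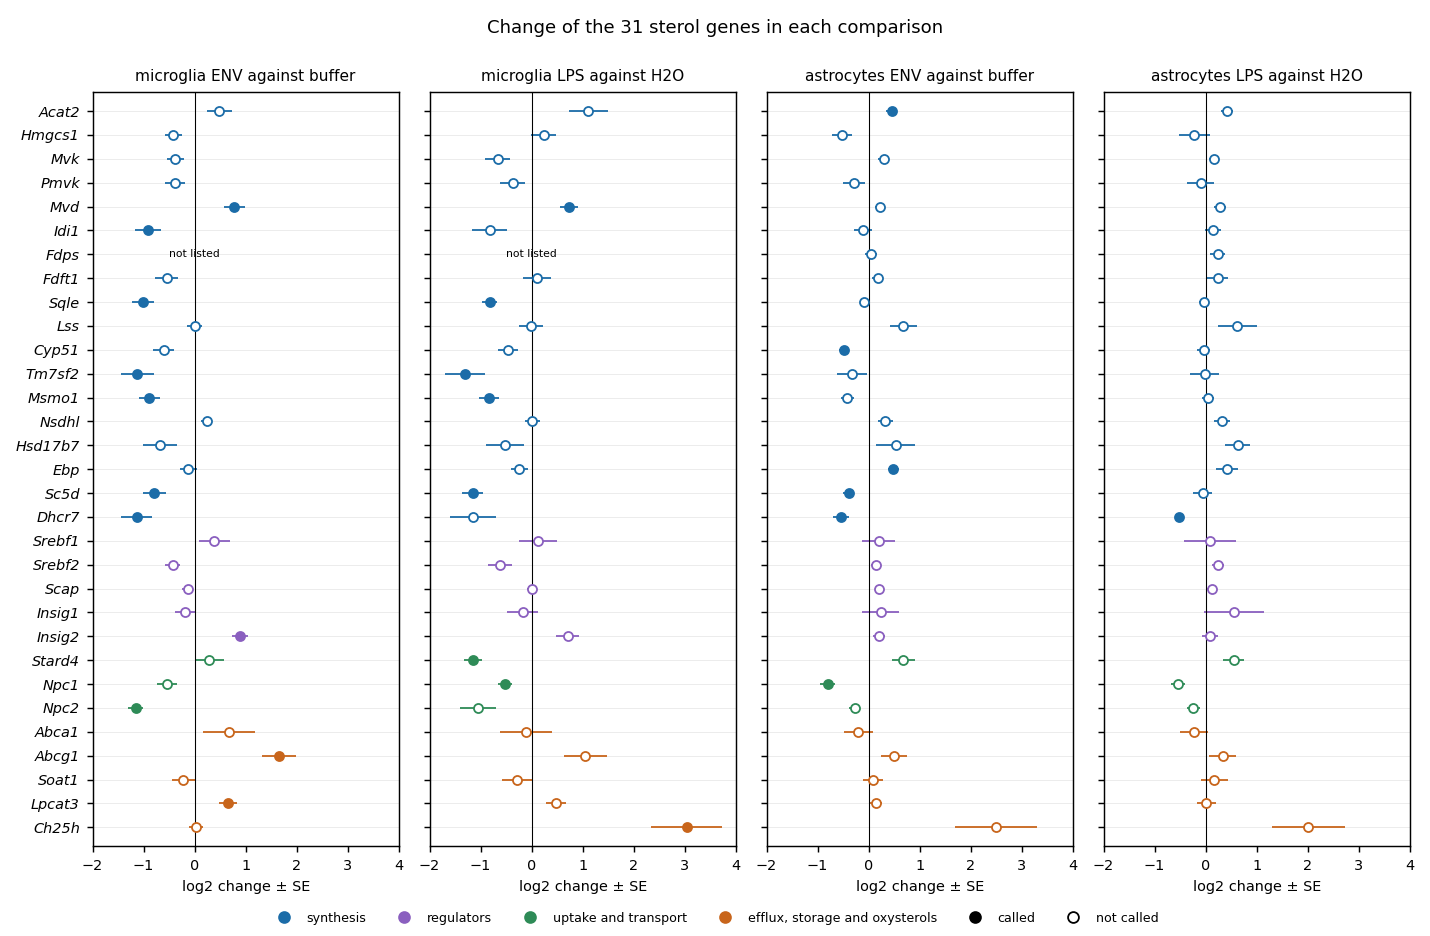
Log2 change ± SE of the 31 genes in the 4 treated comparisons, ordered by arm, with filled points for genes called at an edgeR adjusted p under 0.05 and open points for the others. The synthesis points lie mostly left of 0 in microglia (medians -0.55 with ENV and -0.46 with LPS) and around 0 in astrocytes (-0.02 and 0.16), and Fdps is marked as not listed in microglia.

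Within same-numbered pairs, the median log2 CPM ratio of the synthesis arm was -0.62, -0.75 and -0.75 for ENV over buffer in microglia, and -0.66, -0.56 and -1.02 for LPS over H2O. All 6 microglial medians were thus below 0, by more than the mean TMM shift of their comparison (0.20 with ENV, 0.31 with LPS). No shift was computed for single pairs. In LPS pair 3 all 17 enzymes, all 5 regulators and all 3 transport genes had lower CPM with LPS. In astrocytes the 4 ENV pairs gave -0.19, -0.08, -0.04 and 0.24, and the 4 LPS pairs gave 0.09, 0.13, 0.11 and 0.15.

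**Figure D3:**
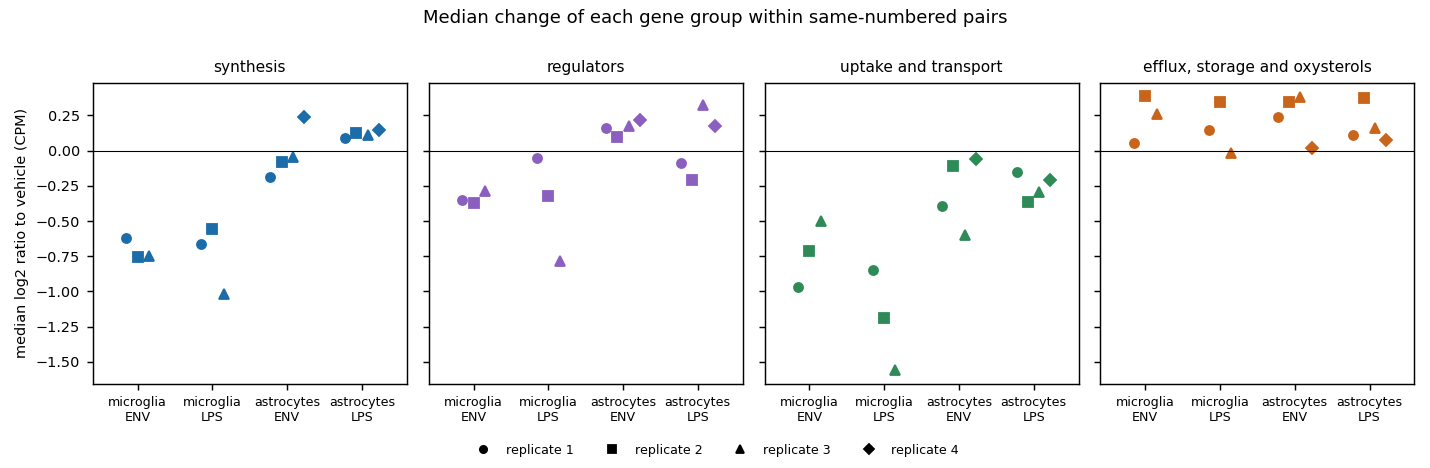
Median log2 CPM ratio (treated over vehicle) of each arm within each same-numbered pair of libraries, for the 4 treated comparisons, with 0 as the line of no difference. The synthesis medians lie between -0.56 and -1.02 in the 6 microglial pairs and between -0.19 and 0.24 in the 8 astrocyte pairs.

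Among the regulators, Insig2 was the one called in a treated comparison. Insig2, which retains Scap in the endoplasmic reticulum, had 14.8, 12.6 and 14.6 CPM in ENV microglia, against 8.94, 9.45 and 7.65 CPM with buffer. The groups did not overlap, and the change of 0.90 ± 0.16 (edgeR adjusted p = 0.00623) held in each of 6 fits that left out 1 library. In LPS microglia Insig2 had 16.4, 13.1 and 9.85 CPM, against 9.91, 10.1 and 9.88 CPM with H2O. LPS replicate 3 lay just below the H2O libraries and the other LPS libraries above them, and the difference of 0.71 ± 0.22 was not called (edgeR adjusted p = 0.0548). In astrocytes Insig2 was 13.7–17.0 CPM with ENV and 11.6–15.2 CPM with buffer, and 11.9–17.2 CPM with LPS and 13.7–14.5 CPM with H2O.

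Srebf2, which encodes the SREBP form that mainly drives sterol genes, had 46.3, 61.9 and 57.8 CPM in ENV microglia, against 80.2, 102 and 74.8 CPM with buffer. Although the groups did not overlap, the difference of -0.43 ± 0.14 was not called (edgeR adjusted p = 0.0566), and with the block it was -0.43 (edgeR adjusted p = 0.0293). In LPS microglia Srebf2 had 40.4, 51.6 and 55.4 CPM, against 63.6, 109 and 108 CPM with H2O (-0.62 ± 0.23, edgeR adjusted p = 0.0867; with the block -0.59, edgeR adjusted p = 0.0428). Scap, the escort protein of the SREBPs, was 44.7–48.4 CPM with ENV and 57.8–60.4 CPM with buffer in microglia, and its fitted difference was -0.14 ± 0.10 (edgeR adjusted p = 0.343). Srebf1, whose product acts more on fatty acid genes, was 45.1–90.5 CPM with ENV and 44.8–70.7 CPM with buffer in microglia.

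In astrocytes none of the 5 regulators was called with either stimulus. Insig1, itself a classic SREBP target, differed between the replicate sets. It stood at 35.6, 25.4, 64.3 and 92.0 CPM with ENV and 47.0, 42.7, 48.6 and 48.6 CPM with buffer. In replicates 1 and 2 alone the fitted ENV difference was -0.62, and in replicates 3 and 4 alone it was 0.74. With LPS, Insig1 stood at 17.7, 18.7, 63.6 and 90.6 CPM, against 19.0, 23.6, 44.7 and 45.7 CPM with H2O, giving -0.26 in replicates 1 and 2 and 0.81 in replicates 3 and 4. None of these 4 values was called. Srebf1 under LPS stood at 68.1, 85.2, 244 and 290.4 CPM, against 136, 110.1, 148 and 276 CPM with H2O. Its full difference was 0.08 ± 0.51, and in replicates 1 and 2 alone it was -0.71 (edgeR adjusted p = 0.0182). The latter fit rests on 2 close libraries per group.

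Npc2, the soluble protein that binds cholesterol in the late endosome, had the lowest edgeR adjusted p of the members in ENV microglia. Its level was 648, 598 and 546 CPM with ENV, against 1448, 1467 and 1673 CPM with buffer. All ENV libraries were far below all buffer libraries (-1.15 ± 0.15, edgeR adjusted p = 0.00172), and each of 6 fits that left out 1 library called it. In LPS microglia Npc2 had 807, 564 and 329.9 CPM, against 1298, 1285 and 1807 CPM with H2O. These groups did not overlap, but the LPS libraries were spread widely and the difference of -1.04 ± 0.36 was not called (edgeR adjusted p = 0.0701). In astrocytes Npc2 was 166–219.5 CPM with ENV and 229–251 CPM with buffer, and 162–203 CPM with LPS and 188–249 CPM with H2O, and neither difference was called.

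Npc1, the membrane partner of Npc2, was lower on the treated side in all 4 comparisons and called in 2 of them. In ENV astrocytes it had 46.1, 53.0, 39.9 and 37.4 CPM, against 89.3, 80.5, 73.6 and 66.8 CPM with buffer. No library overlapped, and the change was -0.81 ± 0.14 (edgeR adjusted p = 0.0076), called in each of 8 fits that left out 1 library. It was -0.84 (edgeR adjusted p = 0.0488) in replicates 1 and 2 alone and -0.80 (edgeR adjusted p = 0.0427) in replicates 3 and 4 alone. In LPS astrocytes Npc1 had 55.9, 52.1, 37.1 and 38.4 CPM, against 61.9, 69.0, 73.1 and 65.8 CPM with H2O (-0.54 ± 0.15, edgeR adjusted p = 0.073). In LPS microglia it had 99.0, 90.4 and 87.9 CPM, against 178, 152 and 161 CPM with H2O (-0.52 ± 0.14, edgeR adjusted p = 0.0325), a call lost in 5 of 6 fits that left out 1 library (highest edgeR adjusted p = 0.127). In ENV microglia it had 89.5, 111 and 81.3 CPM, against 175, 182 and 115 CPM with buffer (-0.54 ± 0.19, edgeR adjusted p = 0.0737; with the block -0.53, edgeR adjusted p = 0.0155).

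Stard4, a cytosolic carrier that moves sterol between membranes, fell in LPS microglia. It had 7.50, 10.4 and 7.17 CPM with LPS, against 21.9, 25.3 and 21.1 CPM with H2O. The groups were far apart (-1.15 ± 0.18, edgeR adjusted p = 0.00779), and each of 6 fits that left out 1 library called it. In ENV microglia Stard4 had 15.0, 27.7 and 20.8 CPM, against 21.7, 25.5 and 12.6 CPM with buffer, overlapping groups with a difference of 0.29 ± 0.29. In astrocytes it had 7.83, 6.42, 8.94 and 10.0 CPM with ENV, against 6.54, 3.40, 5.44 and 5.66 CPM with buffer (0.68 ± 0.22, edgeR adjusted p = 0.0685; with the block 0.69, edgeR adjusted p = 0.02).

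**Figure D4:**
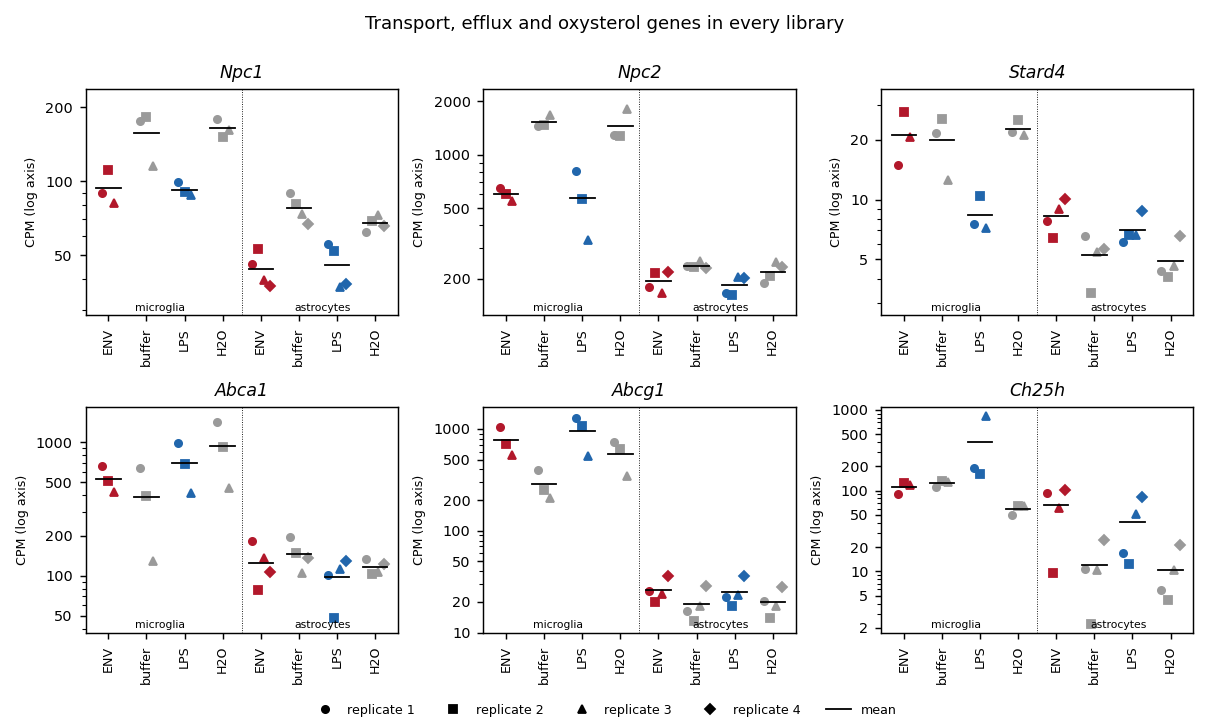
Levels of Npc1, Npc2, Stard4, Abca1, Abcg1 and Ch25h in each of the 28 libraries, in CPM on a log axis, by group, with the group mean as a line and the replicate number as the marker shape. Npc2 in microglia lies at 546–648 CPM with ENV against 1448–1673 CPM with buffer, and Ch25h in LPS microglia has 1 library at 844 CPM above 2 at 159 and 188 CPM.

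In the efflux arm, Abcg1, the half-transporter that exports sterol to lipoprotein particles, rose in ENV microglia. It had 1055, 707 and 559.9 CPM with ENV, against 397, 254 and 208 CPM with buffer. The lowest ENV library lay above the highest buffer library, and the change was 1.65 ± 0.34 (edgeR adjusted p = 0.011), called in each of 6 fits that left out 1 library. In LPS microglia Abcg1 had 1277, 1058 and 545 CPM, against 738, 631 and 347 CPM with H2O. Each pair was higher with LPS, but the groups overlapped and the difference of 1.05 ± 0.43 was not called (edgeR adjusted p = 0.109). With the block it was 1.04 (edgeR adjusted p = 0.0148). In astrocytes Abcg1 was at 25.7, 19.9, 23.8 and 36.1 CPM with ENV, against 16.4, 12.9, 18.1 and 28.5 CPM with buffer, again higher in every pair (0.50 ± 0.25, edgeR adjusted p = 0.207; with the block 0.51, edgeR adjusted p = 0.00811).

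Abca1, which loads lipid onto apolipoproteins and shares control by liver X receptors with Abcg1, was not called in any treated comparison. It stood at 668, 513 and 421 CPM in ENV microglia, against 644, 392 and 129 CPM with buffer (0.67 ± 0.52). In LPS microglia it stood at 988, 689 and 418 CPM, against 1422, 921 and 450.1 CPM with H2O (-0.11 ± 0.51). The groups overlapped in both comparisons, and each spread widely over its replicates. Lpcat3, a phospholipid acyltransferase and known liver X receptor target, had 240.5, 197 and 200.5 CPM in ENV microglia and 167, 129.6 and 168 CPM with buffer (0.66 ± 0.17, edgeR adjusted p = 0.0276). Its call was lost in 5 of 6 fits that left out 1 library (highest edgeR adjusted p = 0.0868). Soat1, which esterifies cholesterol for storage, was 194–263 CPM with ENV and 209–353 CPM with buffer, and was not called in any treated comparison.

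Ch25h makes an oxysterol that restrains SREBP processing and is a known interferon-stimulated gene. In LPS microglia it had 188, 159 and 844 CPM, against 50.0, 64.7 and 65.3 CPM with H2O. All LPS libraries exceeded all H2O libraries, and the change was 3.04 ± 0.70 (edgeR adjusted p = 0.0231). Without LPS replicate 3 and H2O replicate 3 it was 1.89 (edgeR adjusted p = 0.00325), and leaving out any single H2O library ended the call (highest edgeR adjusted p = 0.0953). In ENV microglia Ch25h stood at 91.2, 125 and 117 CPM, against 112, 133 and 129 CPM with buffer. Its fitted difference was 0.03 ± 0.13, while the CPM was lower with ENV in each pair, so its sign depends on the scaling.

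In astrocytes Ch25h had 93.5, 9.59, 60.2 and 101 CPM with ENV, against 10.6, 2.27, 10.6 and 24.7 CPM with buffer. Each ENV library exceeded its own buffer library, but ENV replicate 2 lay among the buffer values, and the difference of 2.50 ± 0.80 was not called (edgeR adjusted p = 0.0653). Within replicate blocks it was 2.48 ± 0.20 (edgeR adjusted p = 0.000806). With LPS it had 17.0, 12.5, 51.7 and 82.3 CPM, against 5.96, 4.47, 10.4 and 21.1 CPM with H2O. Every pair was higher with LPS, the difference was 2.02 ± 0.71 (edgeR adjusted p = 0.154), and within blocks it was 1.85 ± 0.18. In replicates 1 and 2 alone, a fit of 2 close libraries per group, the LPS change was 1.47 (edgeR adjusted p = 0.00606).

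The ENV and LPS responses were set against each other within each cell type. Of all genes, 0% were called in microglia (0 of 13270) and 0% in astrocytes (0 of 15496) by edgeR, where 937 and 76 genes had an unadjusted p under 0.05. DESeq2 called 67 genes in microglia, with Ch25h as the 1 member, and 0 in astrocytes. In microglia the ENV minus LPS difference of responses was -3.0 ± 0.75 for Ch25h and 1.47 ± 0.37 for Stard4, both with an edgeR adjusted p of 0.538, the lowest among the members. For the synthesis arm the median difference was 0.04, with 8 of 17 enzymes below 0. Without LPS replicate 3 and H2O replicate 3, edgeR called 8 genes, among them Ch25h (-1.94, edgeR adjusted p = 0.0343). In astrocytes Msmo1 (-0.47 ± 0.17) and Cyp51 (-0.45 ± 0.15) were the 2 members with an unadjusted p under 0.05. The astrocyte contrast counts near-identical libraries of the ENV and LPS sets as separate, which may distort its spread. A p that misses the threshold does not show that both stimuli act alike.

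The response differed between the cell types for some members when the difference itself was fitted. For ENV, 14.9% of 13378 genes were called and 7 of the 30 members. Microglia minus astrocytes, the differences were -0.94 ± 0.23 for Sqle (edgeR adjusted p = 0.0183), -0.68 ± 0.20 for Mvk (edgeR adjusted p = 0.0353) and -0.61 ± 0.19 for Ebp (edgeR adjusted p = 0.0432) in the synthesis arm. Mvk, mevalonate kinase, had 10.5–13.0 CPM in ENV microglia and 15.6–20.2 CPM with buffer, while it had 21.4–27.9 CPM in ENV astrocytes and 18.6–21.5 CPM with buffer. Of the regulators, Srebf2 (-0.57 ± 0.17, edgeR adjusted p = 0.0433) and Scap (-0.35 ± 0.11, edgeR adjusted p = 0.0439) were lower in the microglial response and Insig2 was higher (0.69 ± 0.19, edgeR adjusted p = 0.0262). Npc2 completed the 7 with -0.89 ± 0.18 (edgeR adjusted p = 0.00637). Of 14 fits that each left out 1 library, Npc2 was called in 14, Sqle in 13 and Insig2 in 11. Mvk was called in only 6 of them, Srebf2 in 3, Scap in 2 and Ebp in 1. The blocked fit called 24.8% of genes and 13 members and added Ch25h (-2.46, edgeR adjusted p = 0.000353), Idi1 (-0.77, edgeR adjusted p = 0.0498) and Fdft1 (-0.71, edgeR adjusted p = 0.00843) on the lower side. On the higher side it added Abcg1 (1.12, edgeR adjusted p = 0.000402), Mvd (0.58, edgeR adjusted p = 0.0476) and Lpcat3 (0.52, edgeR adjusted p = 0.0309). With astrocyte replicates 1 and 2 alone only Insig2 and Npc2 were called among the members, and with replicates 3 and 4 alone only Ch25h (-2.18). Of all genes these fits called 1636 and 1070, against 1998 with all libraries.

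For LPS, 12.5% of 13284 genes were called and 6 of the 30 members. Stard4 differed most, by -1.72 ± 0.28 (edgeR adjusted p = 0.00279), being lower with LPS in microglia and 6.15–8.81 CPM with LPS against 4.06–6.58 CPM with H2O in astrocytes. Sc5d (-1.12 ± 0.26, edgeR adjusted p = 0.0176), Msmo1 (-0.91 ± 0.22, edgeR adjusted p = 0.0205), Mvk (-0.87 ± 0.22, edgeR adjusted p = 0.0259) and Sqle (-0.82 ± 0.18, edgeR adjusted p = 0.0136) were lower in the microglial response. Srebf2 was the sixth (-0.89 ± 0.26, edgeR adjusted p = 0.0438). Of 14 fits that each left out 1 library, Srebf2 was called in only 3 and Mvk in 8, and the others in all 14. The blocked fit called 22.8% of genes and 9 members and added Idi1 (-0.93, edgeR adjusted p = 0.0199), Tm7sf2 (-1.34, edgeR adjusted p = 0.0488) and Abcg1 (0.70, edgeR adjusted p = 0.0172). With astrocyte replicates 1 and 2 alone the member calls were Sc5d and Stard4, and with replicates 3 and 4 alone Stard4. Of all genes these fits called 1434 and 557, against 1656 with all libraries. The median difference over the synthesis arm was -0.60 for ENV and -0.66 for LPS, beside -0.06 and -0.12 over all genes. The cell types were kept in separate tables of different gene lists, so only the responses, and no levels, were tested across them.

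**Figure D5:**
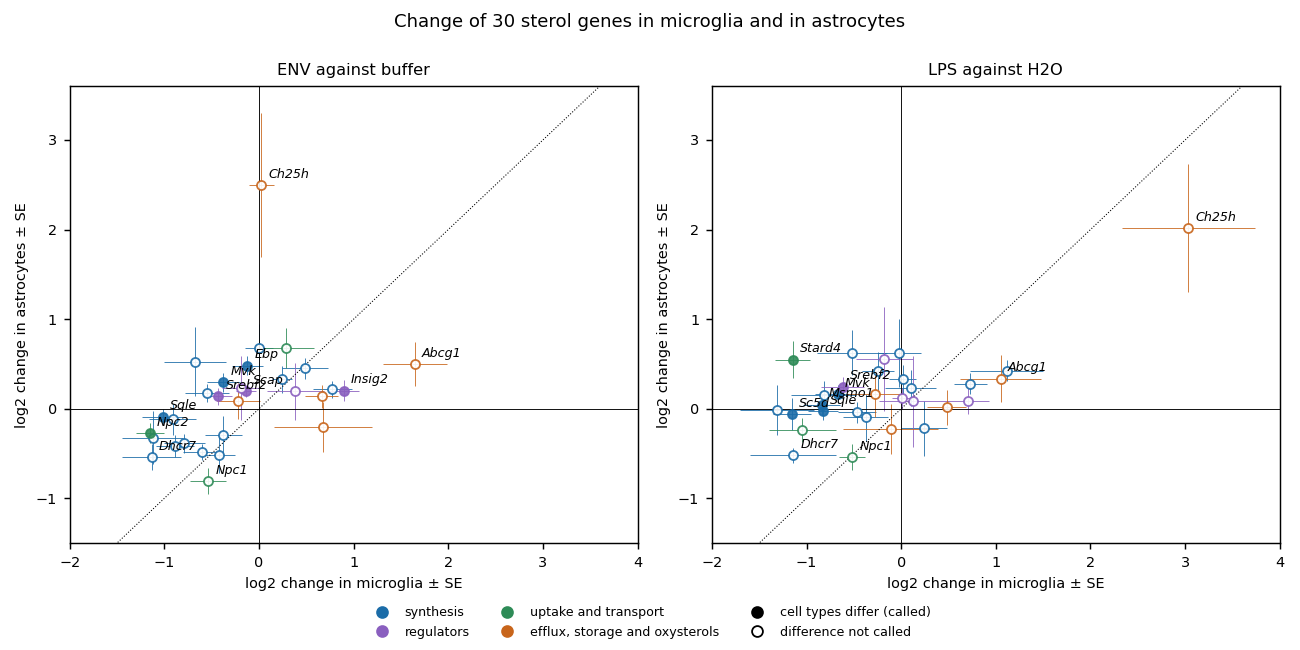
Log2 change in microglia (x axis) against log2 change in astrocytes (y axis) for the 30 members listed in both, ± SE, for ENV and for LPS, with filled points where the difference between cell types was called at an edgeR adjusted p under 0.05. Sqle lies at -1.02 and -0.09 for ENV, and Stard4 at -1.15 and 0.55 for LPS.

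The vehicles set the base of each response, and no gene was called between them by edgeR in microglia (0% of 12900) or astrocytes (0% of 14876). In microglia, however, 1946 genes and 7 members had an unadjusted p under 0.05, and DESeq2 called 679 genes and 3 members. Buffer minus H2O was 0.86 ± 0.24 for Hmgcs1 and 0.94 ± 0.13 for Ch25h on the higher side and -1.13 ± 0.38 for Abcg1 on the lower side, which were the 3 DESeq2 calls. Their levels with buffer and H2O were 37.5–53.3 and 19.4–33.3 CPM for Hmgcs1, 112–133 and 50.0–65.3 CPM for Ch25h, and 208–397 and 347–738 CPM for Abcg1. Without H2O replicate 3, edgeR called 1653 genes and 6 members: Acat2 (1.38), Dhcr7 (1.16), Hmgcs1 (1.12), Fdft1 (1.10), Ch25h (0.97) and Abcg1 (-1.41). Oligodendrocyte-lineage markers summed to 303–336 CPM with buffer and 16.7–179 CPM with H2O, and neuronal markers to 14.4–36.5 CPM with buffer and 1.11–12.2 CPM with H2O. Their part was not tested. In astrocytes 125 genes and 0 members had an unadjusted p under 0.05, and DESeq2 called 0 genes. Some buffer and H2O libraries of astrocytes were near-identical, so this comparison is not one of independent libraries.

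Other sterol genes outside the 31 were counted in the same fits. In ENV microglia 3 of 25 tested were higher and 5 lower, a share near the 30.9% called over all genes. Nr1h3, the gene of liver X receptor alpha, was among the higher at 54.8, 54.3 and 88.5 CPM with ENV and 14.8, 17.0 and 25.7 CPM with buffer (1.97 ± 0.28, edgeR adjusted p = 0.00302). Cyp7b1, an oxysterol hydroxylase, was also higher (2.12 ± 0.34, edgeR adjusted p = 0.0047), at 1.16–2.19 CPM with ENV and 0.385–0.505 CPM with buffer, and the lipoprotein receptor gene Vldlr was lower (-1.87 ± 0.39, edgeR adjusted p = 0.012). In LPS microglia 2 of 24 were higher and 2 lower, a smaller share than the 29.8% called over all genes. The higher were Nr1h3 (2.17 ± 0.42, edgeR adjusted p = 0.0141) and the cholesteryl ester hydrolase gene Nceh1 (1.27 ± 0.31, edgeR adjusted p = 0.0259). Scarb1, a receptor for high-density lipoprotein, was among the lower there, at 90.7, 108 and 86.0 CPM with LPS and 503, 541 and 356 CPM with H2O (-2.0 ± 0.21, edgeR adjusted p = 0.00251). In ENV astrocytes 3 of 27 were higher and 3 lower (17.9% of all genes were called), among them Gramd1b (0.95 ± 0.20, edgeR adjusted p = 0.0147), a sterol transporter at membrane contacts, and Cyp46a1 (-1.20 ± 0.24, edgeR adjusted p = 0.0111), the cholesterol 24-hydroxylase. In LPS astrocytes 1 of 26 was higher, Nceh1 (0.61 ± 0.13, edgeR adjusted p = 0.0358), and 2 lower (5.34% of all genes were called), with Mylip, a ligase that degrades lipoprotein receptors, at -1.31 ± 0.29 (edgeR adjusted p = 0.0402). Vldlr was lower in both astrocyte comparisons (-1.21 ± 0.28 with ENV, edgeR adjusted p = 0.0228, and -1.03 ± 0.21 with LPS, edgeR adjusted p = 0.0302).

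Of the fatty acid synthesis genes, which share SREBP control with the sterol enzymes, 2 of 11 were higher and 3 lower in ENV microglia, and 1 of 10 was higher and 1 lower in LPS microglia. Over all genes 30.9% were called with ENV and 29.8% with LPS. Me1, malic enzyme, which supplies NADPH, had 70.0, 60.6 and 52.0 CPM in ENV microglia and 12.2, 16.9 and 14.8 CPM with buffer (2.26 ± 0.18, edgeR adjusted p = 0.000351). In LPS microglia it was higher as well (1.71 ± 0.29, edgeR adjusted p = 0.00964). Lpin1, a phosphatidate phosphatase, was lower with LPS at 3.70, 3.42 and 1.29 CPM, against 24.5, 24.1 and 19.2 CPM with H2O (-2.70 ± 0.42, edgeR adjusted p = 0.00751). It was also lower with ENV (-1.42 ± 0.32, edgeR adjusted p = 0.0158), as was the desaturase gene Fads2 (-1.0 ± 0.21, edgeR adjusted p = 0.0133). In ENV astrocytes 5 of 12 fatty acid genes were lower and 0 higher, where 17.9% of all genes were called and 8.35% were lower. Fads1, another desaturase gene (-1.02 ± 0.17, edgeR adjusted p = 0.00534), and Mid1ip1, which aids acetyl-CoA carboxylase (-0.71 ± 0.12, edgeR adjusted p = 0.00616), were among them. Fads2 was at 96.5, 153, 140.4 and 109 CPM with ENV and 273, 325, 304 and 249 CPM with buffer (-1.20 ± 0.18, edgeR adjusted p = 0.00375), and it was also the 1 gene of 12 called lower in LPS astrocytes (-0.97 ± 0.15, edgeR adjusted p = 0.0112).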

How the data were processed

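The deposited files hold raw read counts per gene, 1 table per library, with no normalization by the authors apparent in the values. Per the submitters' processing notes, HISAT2, StringTie 1.3.3b and the build mRatBN7.2 were used, with roles not stated. The annotation release and the use of strand were not stated in the sources used here, so overlapping antisense genes cannot be told apart. The labels' protocols describe libraries made with an mRNA capture module from 150 ng of total RNA.

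From the counts, edgeR 4.0.16 in R 4.3.3 (TMM factors, filterByExpr, robust glmQLFit, 2-sided glmQLFTest) gave the log2 changes, their SE (the change divided by the square root of F) and Benjamini-Hochberg adjusted p-values over all genes tested, called under 0.05. Each stimulus was compared with its own vehicle, and differences of responses were fitted as contrasts. The procedure was tested on simulated counts of independent libraries for some of the comparisons. Paired, outlying or near-identical libraries were not simulated, so that test cannot show how the fits behave with them. CPM use the library total. Alternatives were DESeq2 1.42.0, RLE factors, no low-count filter, a joint fit of each cell type's groups, the replicate number as a block, single libraries left out, microglia without replicates 3 of the LPS set, astrocyte replicates 1 and 2 or 3 and 4 alone, and, chosen after seeing the data, library totals without factors.

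Same-numbered libraries of the treated comparisons deviated together: the correlations of their deviations from the group means were 0.317 to 0.469 (microglia, ENV set), 0.416 to 0.514 (microglia, LPS set), 0.26 to 0.637 (astrocytes, ENV set) and 0.529 to 0.634 (astrocytes, LPS set). In LPS astrocytes unlike numbers also deviated together, at 0.397 and 0.531 within replicates 1 and 2 and at 0.282 and 0.319 within 3 and 4. There the pairs are not set apart from these larger replicate sets. The numbers were taken as pairs in the block fits and in the ratios within pairs. The main fits left the pairing out. Between the microglial vehicles replicate 2 gave -0.156, and no pairing was assumed there.

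The text names all 31 genes and, from 2 further lists (other sterol genes and fatty acid synthesis genes), up to 3 per list and treated comparison with the greatest absolute change, taken from genes that were called and had separate groups. The members and lists were chosen with earlier results of these data known. Promoters were read from a RefSeq table of GRCr8, taking the first entry per symbol, and the libraries' own coordinates were not used.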

Additional observations from a re-analysis of the deposited data

Results flagged for a closer look

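In 3 of 124 gene and group combinations of 4 astrocyte libraries, 1 library lay far from the other 3 (a gap past Dixon's critical value, which chance gives in about 1 in 20 groups). These were Mvk with H2O, whose highest library was at 24.6 CPM, Lss with H2O, whose lowest was at 48.0 CPM, and Dhcr7 with ENV, whose highest was at 41.3 CPM.

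The change against vehicle differed between microglia and astrocytes, by edgeR's test of that difference (adjusted p under 0.05), for 7 members with ENV: Mvk (-0.68), Sqle (-0.94), Ebp (-0.61), Srebf2 (-0.57), Scap (-0.35), Insig2 (0.69) and Npc2 (-0.89, log2, microglia minus astrocytes). Outside the members it differed with ENV for Scarb1 (-2.40), Mylip (1.85), Nr1h3 (1.44), Lipa (-0.87), Acaca (0.91) and Me1 (2.58). With LPS it differed for Mvk (-0.87), Sqle (-0.82), Msmo1 (-0.91), Sc5d (-1.12), Srebf2 (-0.89) and Stard4 (-1.72), and outside the members for Scarb1 (-2.77), Nr1h3 (2.00), Me1 (1.97) and Lpin1 (-2.30). Leaving out 1 library at a time kept the call of Npc2 in the ENV contrast, and of Sqle, Msmo1, Sc5d and Stard4 in the LPS contrast, in all 14 fits. The other ENV calls were kept in 13 (Sqle), 11 (Insig2), 6 (Mvk), 3 (Srebf2), 2 (Scap) and 1 (Ebp) of 14 fits (highest edgeR adjusted p 0.188). The other LPS calls were kept in 8 (Mvk) and 3 (Srebf2) of 14 (highest edgeR adjusted p 0.124).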

How the results depend on the processing

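Depth limits the scarcest members, such as Tm7sf2 and Hsd17b7, more than the others. No direction of a called member turned under any alternative; 1 uncalled value, Srebf1 in LPS astrocytes, became a called -0.71 with replicates 1 and 2 alone. For the ENV set in microglia, members called were 17 with the replicate block and 17 with library totals (11 in the main analysis). All genes called rose as well, to 5036 and 4549 from 3972. For LPS in microglia, members called were 14 with DESeq2 and 14 in the joint fit (8 in the main analysis). Library totals gave 1 higher and 11 lower, against 2 higher and 6 lower. All genes called there were 4825 (DESeq2), 4911 (joint fit) and 4353 (library totals), against 3647. Library totals in ENV microglia gave 3 higher and 14 lower, against 4 higher and 7 lower.

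In ENV astrocytes, genes called were 3765 with DESeq2, 4348 with the block, 372 with replicates 1 and 2 and 950 with replicates 3 and 4. Members called were 10 with DESeq2, 11 with the block and 1 with either set of replicates. In LPS astrocytes, genes called were 2049 (DESeq2), 2611 (block), 1736 (joint fit) and 2970 (replicates 1 and 2), and members 4, 5, 3 and 3. For the ENV and LPS responses of microglia, genes called were 67 (DESeq2), 1 (block) and 8 (without LPS and H2O replicates 3), and members 1 (DESeq2) and 1 (without those). Between cell types with ENV, genes called were 1964 (RLE), 3314 (block), 1636 (astrocyte replicates 1 and 2) and 1070 (replicates 3 and 4). Members called were 3 (RLE), 13 (block), 2 (replicates 1 and 2) and 1 (replicates 3 and 4). With LPS, genes called were 2425 (library totals), 2720 (DESeq2), 3029 (block), 1434 (replicates 1 and 2) and 557 (replicates 3 and 4). Members called were 11 (library totals), 2 and 1 (replicates 1 and 2, and 3 and 4). Between microglial vehicles genes called were 679 (DESeq2) and 1 (no filter), and members 3 (DESeq2). The cause of these shifts was not tested. The block ended the Tm7sf2 call in LPS microglia.

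Leaving out 1 library at a time, genes called ranged over 2466–5282 (ENV microglia), 1351–3986 (LPS microglia), 1487–2869 (ENV astrocytes), 236–681 (LPS astrocytes), 0–4 (ENV against LPS in microglia), 1414–2287 and 1105–1820 (cell types, ENV and LPS) and 0–1653 (microglial vehicles). Members called ranged over 4 (without ENV replicate 1) to 11, 2 (without H2O replicate 1) to 11 (without LPS replicate 3), 2 (without buffer replicate 3) to 8 (without ENV replicate 2) and 0 (without H2O replicate 3) to 1 in the 4 treated comparisons. Between the cell types they ranged over 2–7 (ENV) and 4–6 (LPS), and between the microglial vehicles over 0–6 (6 without H2O replicate 3).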
